A study of Mus musculus with 2 samples.

Results

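Aminoacyl-tRNA synthetases are the enzymes that join each amino acid to its transfer RNA, and 34 genes of this family were described here among the 54532 gene rows of the deposited table. They were chosen by gene symbol, 19 for enzymes of the cytosol and 15 for enzymes of the mitochondrion, and the set was drawn up with the low ratio of Lars2, the mitochondrial leucyl enzyme, already known from these data. The list is not the whole family. Every member was found and every member passed the minimum of 20 counts summed over both libraries, which left 13902 genes in all as measured.

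The cells were CD4-positive effector T cells that carry the transgenic BDC-2.5 receptor, from a clone that recognises a pancreatic beta cell antigen, so that the transferred cells share a specificity. The hosts were NOD.scid mice, whose own lymphocytes are missing, and they received the activated cells by adoptive transfer. In the 2.5HIP-PLG group, recipients were given 1.75 mg of nanoparticles intravenously 1 day after transfer, particles of the polymer PLG that carry a hybrid insulin peptide; the Untreated group received none by its treatment label. On day 6 after transfer, Foxp3-negative cells (negative for a green fluorescent reporter of Foxp3) were sorted from spleen and lymph nodes and pooled over 4 mice per group. Each group is 1 library, so no value below has a replicate check, no test between groups was possible and no p-value is given. The injection text is attached to both samples in the labels, and no label gives the sex or age of the mice.

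The rounded counts summed to 22580687 in 2.5HIP-PLG cells, against 26036669 in Untreated cells, so that 1 read was worth 0.0443 CPM for 2.5HIP-PLG and 0.0384 CPM for Untreated (a count scaled by its library total). The 6 T cell markers Cd3e, Cd3g, Cd4, Cd5, Lck and Trac had between 9061 and 41743 counts in 2.5HIP-PLG cells, against between 8501 and 39739 in Untreated cells. Foxp3 itself, the gene excluded by the sort, had 1157 counts in 2.5HIP-PLG cells, against 389 in Untreated cells. In scaled counts the ratio of 2.5HIP-PLG over Untreated was 3.43, and Foxp3 was called higher by the rule given below. The 24 markers of B cells, myeloid cells, neutrophils and basophils, erythroid and stromal cells ran from 0 to 557 counts in 2.5HIP-PLG cells, against from 0 to 579 in Untreated cells, with 1 marker at 0 in both. They summed to 2321 counts in 2.5HIP-PLG cells and 2010 in Untreated cells, and 9 of the 24 were called higher by the 1.5-fold rule applied to all genes here, with 0 lower, beside 5.15% higher and 9.7% lower among all measured genes. Mcpt8, a basophil protease gene, had 116 counts in 2.5HIP-PLG cells and 22 in Untreated cells. Mpo, of neutrophil granules, had 237 in 2.5HIP-PLG cells and 57 in Untreated cells. Elane (31 and 9) and Prss34 (199 and 54) were called higher too. So were the myeloid genes Lyz2 (101 and 47) and Csf1r (50 and 27) and the erythroid gene Car1 (195 and 126). The stromal genes Col1a1 (39 and 14) and Cdh5 (17 and 7) completed those called higher. The remaining listed markers were not called, among them S100a8 (10 and 8) and S100a9 (10 and 9), both scarce, and Itgam (219 and 325). The part of such markers' cells, or of cells with Foxp3 RNA, in the synthetase ratios was not tested.

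Each synthetase recognises an amino acid and its matching transfer RNA, spends ATP to activate the amino acid and loads it, which is the step that ties codons to amino acids. Animal cells keep separate nuclear genes for most cytosolic and mitochondrial enzymes, with the mitochondrial ones imported to serve the few proteins made inside mitochondria. Activated T cells raise protein synthesis as they grow, and the cytosolic enzymes are known targets of the amino acid response driven by the transcription factor ATF4.

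Across the family, Lars2 was the exception. Its level was far lower in 2.5HIP-PLG cells, and the other 33 members lay within 1.5-fold of equality between the libraries. Ratios are 2.5HIP-PLG over Untreated in scaled counts, each with a 95% interval from the exact conditional binomial (Clopper-Pearson), which reflects counting error alone. Any gene was called higher or lower where the ratio reached 1.5 in that direction and the interval left out 1. By this rule 0 of 34 members were higher and 1 was lower, beside 5.15% higher and 9.7% lower among all measured genes, together 14.8%. Those shares, used throughout, include scarce genes. A narrower set of 8370 measured genes was limited to a range of count sums that held every member except Lars2. In that set 282 genes were higher, 382 lower and 7706 neither, so calls were rarer there than among all measured genes. In bulk RNA, fewer cells that express a gene and less of its RNA per cell cannot be told apart.

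**Figure D1:**
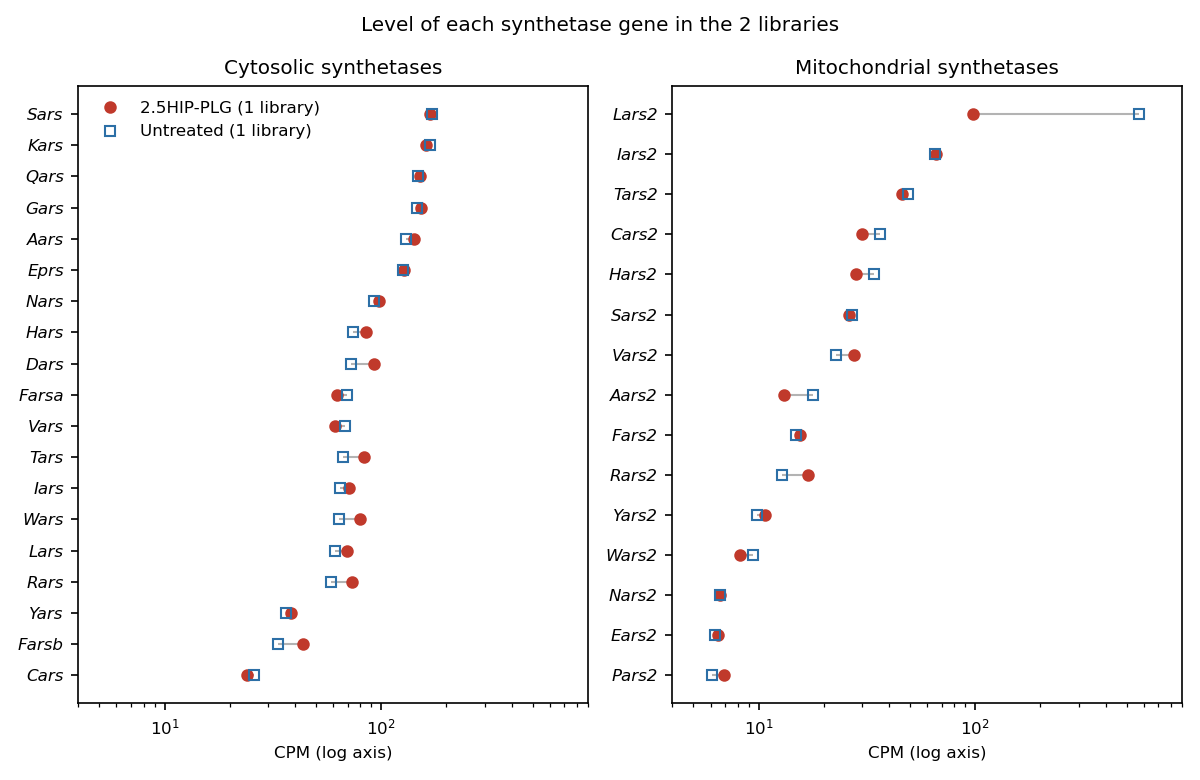
Level of each of the 34 synthetase genes in CPM on a log axis, cytosolic enzymes left and mitochondrial enzymes right, with filled circles for the 2.5HIP-PLG library and open squares for the Untreated library. The widest gap is that of Lars2, at 98.0 CPM in 2.5HIP-PLG cells, against 568.9 CPM in Untreated cells.

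Lars2 lies on chromosome 9 (123366927 to 123462666, plus strand, GRCm38) and encodes the enzyme that charges mitochondrial leucine transfer RNAs; in humans, inherited loss of its function causes Perrault syndrome, with hearing loss and ovarian failure. It had 2214 counts in 2.5HIP-PLG cells, against 14813 counts in Untreated cells. The Untreated library was the high one. The ratio was 0.172 (95% interval 0.165 to 0.180), which is 5.80-fold lower (5.55 to 6.07), with a log2 ratio of -2.54. As the gene was selected for this difference, the ratio is a description.

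Among the 34 members, Lars2 ranked 7th by counts in 2.5HIP-PLG cells, against 1st in Untreated cells. It held 4.48% of all synthetase counts (exact binomial interval 4.30 to 4.67) in 2.5HIP-PLG cells, against 22.2% (21.9 to 22.5) in Untreated cells. Among the mitochondrial members alone, it made up 24.2% (23.3 to 25.1) in 2.5HIP-PLG cells, against 64.2% (63.6 to 64.8) in Untreated cells. In both libraries Lars2 had more counts than any other mitochondrial member. Per length, as CPM per kb of the longest protein-coding transcript, Lars2 stood at 25.2 in 2.5HIP-PLG cells, rank 12 of 34, and at 146.1 in Untreated cells, rank 1 of 34.

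The place of Lars2 among all genes is a description, since the gene was chosen for its low ratio. It had fewer counts than 2358 genes in 2.5HIP-PLG cells and fewer than 254 in Untreated cells. Of 13902 measured genes, 99 (0.712%) had a lower log2 ratio. Among 7022 genes with a count sum of at least 1000, 4 were lower, named here after their values were seen: the integrin gene Itgae (log2 ratio -3.86), the small nuclear RNA Rn7sk (-3.29), the T cell receptor adaptor gene Trat1 (-2.90) and Rn7s2 (-2.58).

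**Figure D2:**
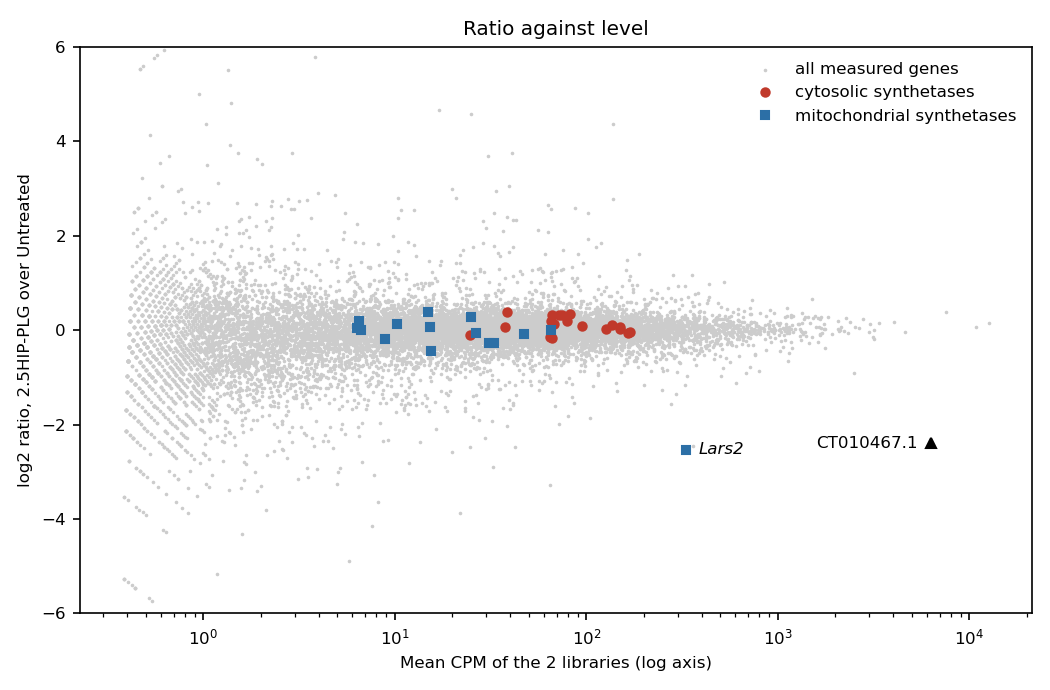
Log2 ratio (2.5HIP-PLG over Untreated) against the mean CPM of the 2 libraries on a log axis, with all measured genes in grey, cytosolic synthetases as circles and mitochondrial synthetases as squares; 9 genes lie beyond the vertical axis. Lars2, at a log2 ratio of -2.54, lies far below the other members, near the height of the ribosomal RNA gene CT010467.1.

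The promoter of Lars2 is shown because it is the start of the member that differed. These are the 250 bases before the RefSeq start site, chr9:123366677-123366926 on the plus strand of GRCm38.p6, in lower case throughout because they hold no match to the amino acid response element described further down.
Lars2: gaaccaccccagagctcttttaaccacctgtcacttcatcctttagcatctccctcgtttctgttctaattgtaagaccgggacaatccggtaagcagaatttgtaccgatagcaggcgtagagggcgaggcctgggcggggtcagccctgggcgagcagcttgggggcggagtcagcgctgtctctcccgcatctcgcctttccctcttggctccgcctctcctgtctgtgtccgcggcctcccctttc

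The genes beside Lars2 on chromosome 9 were near equal in the libraries or too scarce to resolve. The nearest measured protein-coding gene is Limd1, a LIM domain protein gene 16.0 kb after it, which had 2923 counts in 2.5HIP-PLG cells, against 3772 in Untreated cells (ratio 0.894, 0.851 to 0.938). Next came Sacm1l, encoding a phosphoinositide phosphatase, with 1982 counts in 2.5HIP-PLG cells and 1889 in Untreated cells (1.21, 1.14 to 1.29). Exosc7, an RNA exosome gene on the other side, had 446 counts in 2.5HIP-PLG cells and 489 in Untreated cells (1.05, 0.923 to 1.20). Of the 3 measured protein-coding neighbours on either side, 0 of 6 were called, beside 14.8% of all measured genes. However, Clec3b, Tmem158 and Slc6a20b had only 11 to 25 counts per library.

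Ribosomal RNA rows were also lower in 2.5HIP-PLG cells. CT010467.1, a ribosomal RNA gene on chromosome 17, had 45597 counts in 2.5HIP-PLG cells, against 276236 in Untreated cells (ratio 0.190, 0.188 to 0.192). Adjacent to it, the noncoding gene Gm26917 had 10710 counts in 2.5HIP-PLG cells and 23191 in Untreated cells (0.533, 0.520 to 0.545) and Gm42418, which overlaps CT010467.1 on the other strand, had 8288 in 2.5HIP-PLG cells and 14594 in Untreated cells (0.655, 0.637 to 0.673). The mitochondrial ribosomal RNA genes were lower as well, mt-Rnr2 with 19903 counts in 2.5HIP-PLG cells and 35870 in Untreated cells (0.640, 0.629 to 0.651) and mt-Rnr1 with 11621 in 2.5HIP-PLG cells and 16328 in Untreated cells (0.821, 0.801 to 0.840). Of the 5 measured rows, 4 were called lower, beside 9.7% of all measured genes. All 5 intervals lay below 1, beside 26.3% of all measured genes. The part of ribosomal RNA content in the Lars2 ratio was not tested. With these rows left out of the totals the Lars2 ratio was 0.171. That step changes the scaling only and leaves the counts of Lars2 as they are.

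Sequence shared with other transcripts was counted in stretches of 31 bases, on both strands of the GENCODE M21 transcripts. The longest protein-coding Lars2 transcript, of 3894 bases, shared 0 of its 3864 stretches with the ribosomal RNA rows, apart from the listed row Gm15564. It shared 42 (1.09%) with other genes, 26 of them with AA474408, a gene on chromosome 7 that the annotation marks as still to be verified, and 22 with the antisense gene Gm15564 on chromosome 16. Both were scarce, AA474408 with 8 counts in 2.5HIP-PLG cells, against 24 in Untreated cells, and Gm15564 with 0 in 2.5HIP-PLG cells and 1 in Untreated cells. The run shared with Gm15564 is 52 bases long and lies in the 3′ untranslated region of Lars2, in exon 21 (chromosome 9, 123462048 to 123462099). No 28S ribosomal RNA sequence was among those compared, and whether this run also occurs in it was not tested. Counts per gene do not show how many Lars2 reads fell on the run. Reads of ribosomal RNA counted under Lars2, if there were any, therefore cannot be told apart from reads of Lars2 itself, and both Lars2 and the ribosomal RNA rows were lower in 2.5HIP-PLG cells.

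The cytosolic enzymes were close to equal in the libraries and leaned slightly to 2.5HIP-PLG. Their median log2 ratio was 0.08 (range -0.16 to 0.38), beside -0.01 over all measured genes. Of the 19, 0 were called, beside 14.8% of all measured genes. In 14 of 19 the ratio was above 1 (13 with upper quartile scaling), beside 6739 of 13902 measured genes with a log2 ratio above 0. The interval lay above 1 in 9 members and below 1 in 2, beside 24.3% and 26.3% of all measured genes. These shares depend on depth. In the narrower set of 8370 genes, 2405 intervals lay above 1 and 2195 below. There 4387 log2 ratios were above 0 and the median was 0.013. Summed, the cytosolic members had 1782 CPM in 2.5HIP-PLG cells, against 1677 CPM in Untreated cells, a ratio of 1.06 (1.05 to 1.08).

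**Figure D3:**
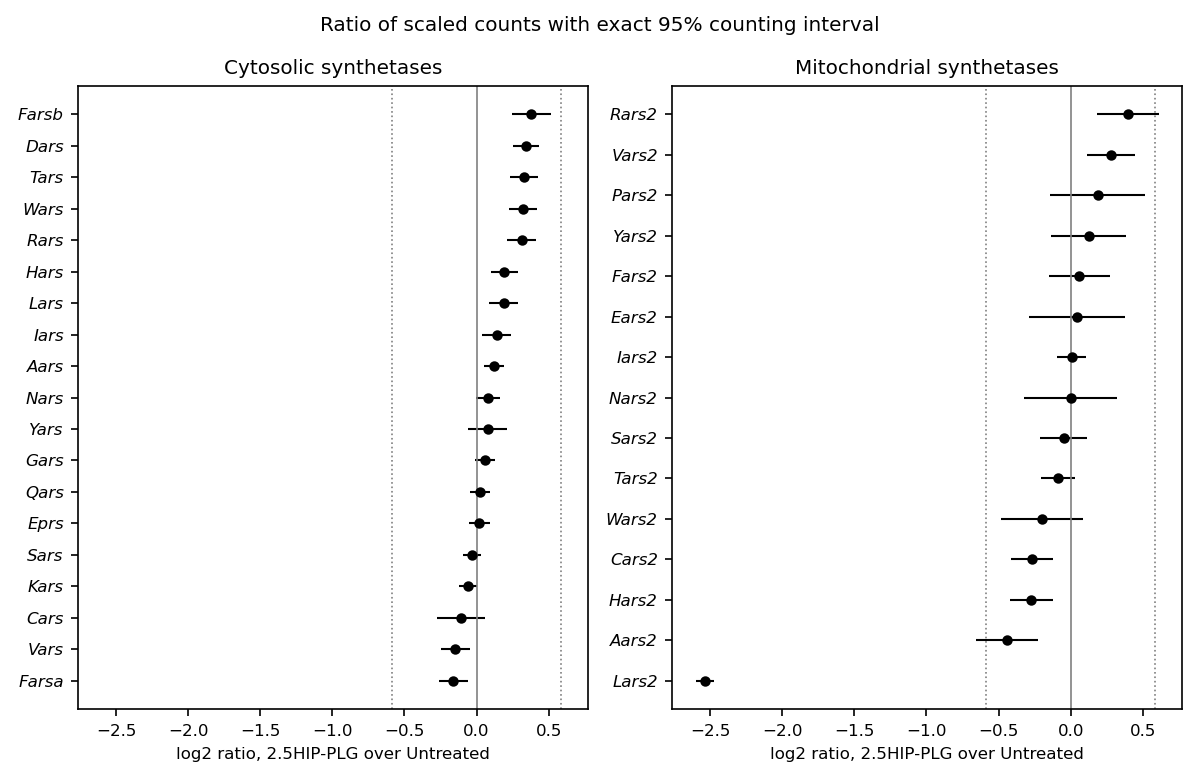
Log2 ratio (2.5HIP-PLG over Untreated) of each member with its exact 95% counting interval, cytosolic enzymes left and mitochondrial enzymes right; the solid line marks equality and the dotted lines a 1.5-fold difference. Lars2 is the only member whose point lies beyond a dotted line.

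Farsb had the highest cytosolic ratio and its partner subunit the lowest. Farsb, the beta subunit of the phenylalanyl enzyme, had 987 counts in 2.5HIP-PLG cells, against 874 in Untreated cells (ratio 1.302, 1.19 to 1.43). Its partner Farsa, the alpha subunit, had 1405 counts in 2.5HIP-PLG cells and 1810 in Untreated cells (0.895, 0.834 to 0.960), so that the subunits of a shared enzyme leaned opposite ways with intervals that did not overlap. The Farsb counts were not whole, and 10.97% of its stretches of 31 bases also lie in the overlapping Sgpp2, which had 42 counts in 2.5HIP-PLG cells and 7 in Untreated cells; the part of Sgpp2 in the Farsb ratio was not tested.

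Dars, the aspartyl enzyme, had 2083 counts in 2.5HIP-PLG cells, against 1897 in Untreated cells (1.27, 1.19 to 1.35). Tars, the threonyl enzyme, had 1887 in 2.5HIP-PLG cells and 1731 in Untreated cells (1.26, 1.18 to 1.34), and Wars, the tryptophanyl enzyme, which interferon gamma induces, had 1802 in 2.5HIP-PLG cells and 1665 in Untreated cells (1.248, 1.17 to 1.33). Rars, the arginyl enzyme, had 1651 counts in 2.5HIP-PLG cells and 1531 in Untreated cells (1.24, 1.16 to 1.33). All of these were modestly higher in 2.5HIP-PLG cells and none reached the 1.5 rule.

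Hars, the histidyl enzyme, had a ratio of 1.14 (1.07 to 1.22) from 1914 counts in 2.5HIP-PLG cells and 1930 in Untreated cells, and Lars, the cytosolic leucyl enzyme that also senses leucine for the growth kinase mTORC1, had 1.14 (1.06 to 1.22) from 1571 in 2.5HIP-PLG cells and 1589 in Untreated cells. Iars, the isoleucyl enzyme, had 1.10 (1.03 to 1.18), and Aars, the alanyl enzyme, which also clears wrongly attached serine, had 1.09 (1.03 to 1.14). Their intervals lay just above 1.

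On the low side only Farsa and Vars, the valyl enzyme, had intervals below 1, and Vars had 1386 counts in 2.5HIP-PLG cells, against 1769 in Untreated cells (0.903, 0.841 to 0.970). In the other 8 the interval held 1, a number that scaling changed: 11 cytosolic intervals lay above 1, in place of 9, with TMM or DESeq2 scaling, and 3 lay below 1, in place of 2, with upper quartile scaling or reduced totals. The 8 were Nars (asparaginyl, 1.06), Yars (tyrosyl, 1.05), Gars (glycyl, 1.04), Qars (glutaminyl, 1.02), Eprs (the fused glutamyl and prolyl enzyme, 1.01), Sars (seryl, 0.980), Kars (lysyl, 0.959) and Cars (cysteinyl, 0.928). Gars and Kars each make both a cytosolic and a mitochondrial enzyme from the same gene, and their summed ratio was 0.998 (0.966 to 1.03).

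By level, Kars, Gars and Qars were the most abundant cytosolic members per length, at 73.6, 64.2 and 53.7 CPM per kb in 2.5HIP-PLG cells and 76.7, 61.7 and 52.9 CPM per kb in Untreated cells. The least abundant was Cars, at 7.42 CPM per kb in 2.5HIP-PLG cells and 7.999 in Untreated cells. The order of the cytosolic enzymes at both ends was thus shared by the libraries.

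Several cytosolic enzymes sit together in the multi-synthetase complex, a cytosolic assembly that keeps charged transfer RNAs close to the ribosome. Its 7 enzymes among the members (Dars, Eprs, Iars, Kars, Lars, Qars and Rars) had a median log2 ratio of 0.14, from -0.06 to 0.34. Of these, 0 were called, beside 14.8% of all measured genes. The 3 scaffold genes were not called either. Eef1e1, which encodes the scaffold AIMP3, had 408 counts in 2.5HIP-PLG cells, against 348 in Untreated cells (1.35, 1.17 to 1.56). Aimp1 had 1165 in 2.5HIP-PLG cells and 1412 in Untreated cells (0.951, 0.880 to 1.03), and Aimp2 had 454 in 2.5HIP-PLG cells and 498 in Untreated cells (1.05, 0.924 to 1.20).

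The amino acid response element is a short sequence that ATF4 and C/EBP factors bind in many synthetase promoters. Its core, TGATGNAA, was searched on both strands of RefSeq promoter windows (GRCm38.p6, 250 bases before to 50 after a start site). Windows were found for 12 cytosolic and 13 mitochondrial members. The core was present in 5 of 12 cytosolic windows (Aars, Gars, Iars, Tars and Yars) and in 0 of 13 mitochondrial windows, Lars2 included, beside 4.51% of 27025 genes with a window. A match is a description and not a shown binding site.

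The 3 cytosolic windows with the core before the start site are shown, 60 bases each, because they carry the sequence feature that some members share. Capitals mark the core, which reads on the opposite strand of the gene in each.
Gars: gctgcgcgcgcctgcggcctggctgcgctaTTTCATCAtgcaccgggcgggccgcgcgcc
Aars: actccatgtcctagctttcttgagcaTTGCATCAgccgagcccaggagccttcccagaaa
Tars: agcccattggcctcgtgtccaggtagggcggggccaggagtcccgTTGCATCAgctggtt
They lie at chr6:55037941-55038000 (plus strand), chr8:111033704-111033763 (plus strand) and chr15:11399659-11399718 (minus strand).

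The cytosolic members with and without the core had overlapping ratios. The 5 with it had a median log2 ratio of 0.12 (0.06 to 0.33), and the 7 cytosolic members whose window lacks it had 0.02 (-0.16 to 0.38).

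Other genes of the amino acid response were called about as often as genes in general. Of 23 listed genes (24 rows), 20 were measured, with 2 called higher, 1 lower and 17 neither, beside 14.8% of all measured genes called in either direction. Their median log2 ratio was 0.10. Atf4 itself had 4223 counts in 2.5HIP-PLG cells, against 5558 in Untreated cells, with a log2 ratio of -0.19. Asns, asparagine synthetase, had 149 counts in 2.5HIP-PLG cells and 111 in Untreated cells (1.55, 1.20 to 1.997), and Gpt2, the mitochondrial alanine aminotransferase, had 52 in 2.5HIP-PLG cells and 25 in Untreated cells (2.40, 1.46 to 4.03). Psat1, of serine synthesis, had 1873 counts in 2.5HIP-PLG cells and 1510 in Untreated cells (1.43, 1.34 to 1.53). The lower gene was Stc2, a secreted stress glycoprotein, with 225 counts in 2.5HIP-PLG cells and 546 in Untreated cells (0.475, 0.405 to 0.556).

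The mitochondrial enzymes other than Lars2 were spread around equality. Over all 15 the median log2 ratio was 0.00, with 7 ratios above 1 (6 to 8 under other scalings), and over the 14 without Lars2 it was also 0.00 (range -0.44 to 0.40), again beside -0.01 for all measured genes. Intervals lay above 1 in 2 members and below 1 in 4, Lars2 among them, beside 24.3% and 26.3% of all measured genes. In the narrower set these were 2405 and 2195 of 8370 genes. The cytosolic median exceeded the mitochondrial median by 0.08 on the log2 scale, and by 0.045 over members with whole counts only, a restriction chosen after seeing the data.

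The summed mitochondrial level depended on Lars2. It was 405.7 CPM in 2.5HIP-PLG cells, against 886.4 CPM in Untreated cells, a ratio of 0.458 (0.447 to 0.469). Without Lars2 it was 307.7 CPM in 2.5HIP-PLG cells and 317.5 CPM in Untreated cells (0.969, 0.938 to 1.00). The whole family held 0.219% of library counts in 2.5HIP-PLG cells, against 0.256% in Untreated cells, but 0.209% in 2.5HIP-PLG cells and 0.1995% in Untreated cells once Lars2 was left out, which is the opposite direction.

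Among the lower mitochondrial members, Aars2 came after Lars2. It encodes the mitochondrial alanyl enzyme, whose loss in humans affects the heart or, in other patients, white matter and ovaries, and had 296 counts in 2.5HIP-PLG cells, against 463 in Untreated cells (0.737, 0.635 to 0.855). Hars2, the mitochondrial histidyl enzyme and, like Lars2, a human Perrault syndrome gene, had 634 counts in 2.5HIP-PLG cells and 884 in Untreated cells (0.827, 0.746 to 0.917). Cars2, the mitochondrial cysteinyl enzyme, had 679 in 2.5HIP-PLG cells and 942 in Untreated cells (0.831, 0.752 to 0.918). In these 3 the Untreated library was higher by less than 1.5-fold.

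On the higher side stood Rars2 and Vars2. Rars2, the mitochondrial arginyl enzyme, whose loss in humans causes pontocerebellar hypoplasia, had 381 counts in 2.5HIP-PLG cells, against 334 in Untreated cells (1.32, 1.13 to 1.53). Vars2, the mitochondrial valyl enzyme, had 622 in 2.5HIP-PLG cells and 590 in Untreated cells (1.22, 1.08 to 1.36). These opposite leanings were all small beside that of Lars2.

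In the other 9 mitochondrial members the interval held 1, with ratios from 0.872 for Wars2, the tryptophanyl enzyme, to 1.14 for Pars2, the prolyl enzyme. Between them lay Tars2 (threonyl, 0.940), Sars2 (seryl, 0.967), Nars2 (asparaginyl, 1.00), Iars2 (isoleucyl, 1.00), Ears2 (glutamyl, 1.03), Fars2 (phenylalanyl, 1.04) and Yars2 (tyrosyl, 1.09). Iars2 was measured most deeply of these, with 1482 counts in 2.5HIP-PLG cells, against 1701 in Untreated cells, and its interval of 0.936 to 1.08 was the narrowest. Ears2, Nars2 and Pars2 had between 146 and 173 counts per library, so that differences of up to about 1.251-fold could not be resolved for Nars2 (0.798 to 1.251).

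Setting each mitochondrial enzyme beside the cytosolic enzyme of its amino acid gave 15 pairs, with Eprs used for both glutamate and proline and Farsa for phenylalanine. The log2 ratio of the mitochondrial enzyme was below that of its cytosolic counterpart in 9 of 15 pairs, and in 8 of the 14 without leucine, with a median difference of -0.05 in those 14. The leucine pair differed by -2.73, from -2.54 for Lars2 and 0.19 for Lars. In the other 14 pairs the difference ran from -0.56 (alanine) to 0.43 (valine).

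**Figure D4:**
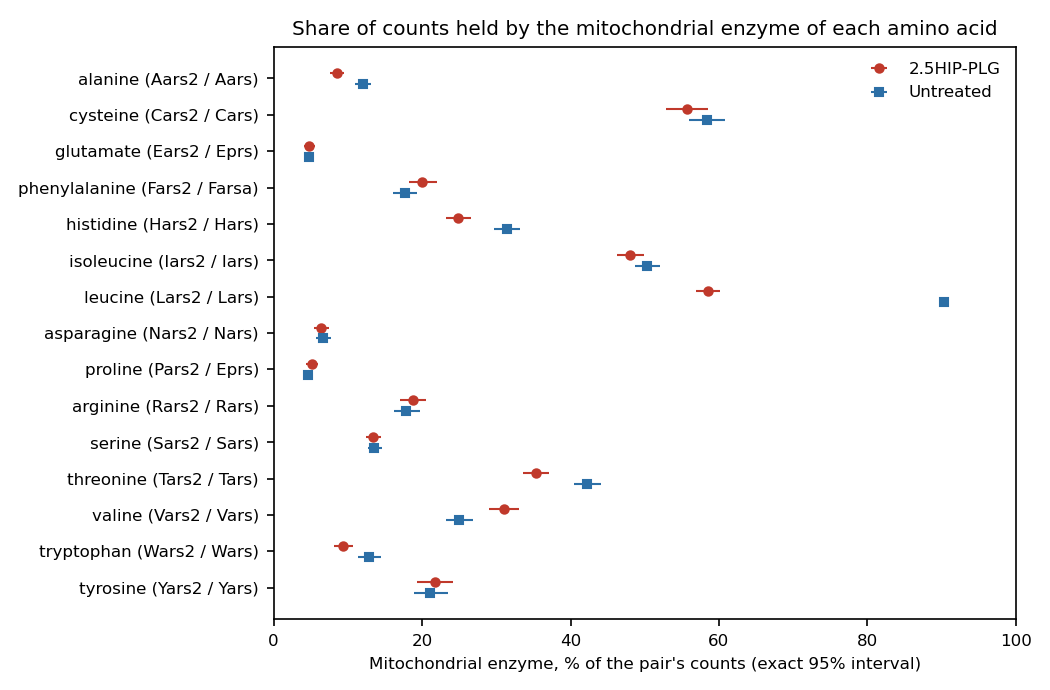
Share of each amino acid's synthetase counts held by its mitochondrial enzyme, in percent with exact binomial 95% intervals, with circles for the 2.5HIP-PLG library and squares for the Untreated library. The leucine pair is the widest apart, at 58.5% in 2.5HIP-PLG cells, against 90.3% in Untreated cells.

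Lars2 held 58.5% of leucine pair counts (56.9 to 60.1) in 2.5HIP-PLG cells, against 90.3% (89.9 to 90.8) in Untreated cells. Per length, Lars2 stood at 1.44 times the level of Lars in 2.5HIP-PLG cells, against 9.53 times in Untreated cells. Cars2 was the only other mitochondrial enzyme above its cytosolic counterpart per length, at 2.13 times in 2.5HIP-PLG cells, against 2.38 times in Untreated cells; in the remaining 13 pairs it was below in both libraries. The lowest was Nars2, at 0.0495 times the level of Nars in 2.5HIP-PLG cells and 0.0523 times in Untreated cells.

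The pairs for histidine, threonine, tryptophan and alanine held a smaller mitochondrial share in 2.5HIP-PLG cells. Hars2 held 24.9% (23.2 to 26.6) in 2.5HIP-PLG cells, against 31.4% (29.7 to 33.2) in Untreated cells, and Tars2 held 35.4% (33.7 to 37.2) in 2.5HIP-PLG cells and 42.3% (40.5 to 44.1) in Untreated cells. Wars2 held 9.36% (8.11 to 10.7) in 2.5HIP-PLG cells and 12.9% (11.4 to 14.5) in Untreated cells, and Aars2 held 8.50% (7.59 to 9.47) in 2.5HIP-PLG cells and 12.04% (11.02 to 13.1) in Untreated cells. Vars2 went the other way, with 30.98% (29.0 to 33.1) in 2.5HIP-PLG cells and 25.01% (23.3 to 26.8) in Untreated cells. Hars and Hars2 lie head to head on chromosome 18 and share 165 stretches of 31 bases, and the counts of both were not whole, and how reads were divided between them is not known.

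Both catalytic classes had medians near 0 once Lars2 was left out. The 15 other class I enzymes, which share a nucleotide-binding fold, had a median log2 ratio of 0.08 (-0.27 to 0.40). The 17 class II enzymes had 0.06 (-0.44 to 0.38). Eprs carries an enzyme of each class and was counted in neither.

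Partner enzymes of mitochondrial translation lay within 1.5-fold of equality. Of 17 genes for mitochondrial tRNA processing and modification, 0 were called, beside 14.8% of all measured genes. Their median log2 ratio was 0.00 (-0.32 to 0.33). The farthest were Nsun3, a methyltransferase for mitochondrial methionine tRNA, with 370 counts in 2.5HIP-PLG cells, against 339 in Untreated cells (1.26, 1.08 to 1.46), Hsd17b10, a subunit of mitochondrial RNase P, at 1.249 (1.13 to 1.38), Trmu, which thiolates mitochondrial tRNAs, at 0.802 (0.655 to 0.980), and Mtfmt, which formylates the initiator methionine, at 0.839 (0.736 to 0.956). Their ratios lay on both sides of 1.

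Of 11 mitochondrial translation factors, 0 were called, again beside 14.8% of all measured genes, with a median of 0.10 (-0.18 to 0.39). Mrrf, which recycles mitochondrial ribosomes, had 220 counts in 2.5HIP-PLG cells, against 194 in Untreated cells (1.31, 1.07 to 1.59), and the elongation factor gene Gfm1 had 851 in 2.5HIP-PLG cells and 803 in Untreated cells (1.22, 1.11 to 1.35). The initiation factor gene Mtif2 had a ratio of 0.881 (0.787 to 0.986) and the release factor gene Mtrf1 of 0.882 (0.644 to 1.20). In the cytosol, 6 elongation factor genes had a median of 0.02 (-0.03 to 0.08) and 0 calls, beside the same 14.8%. The most abundant, Eef1a1, had 250359 counts in 2.5HIP-PLG cells and 277181 in Untreated cells (1.04, 1.04 to 1.05). Eef2 was at 0.976 (0.968 to 0.984), Eef1d at 1.05 (1.01 to 1.10) and Eif5a at 1.03 (1.00 to 1.06).

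**Figure D5:**
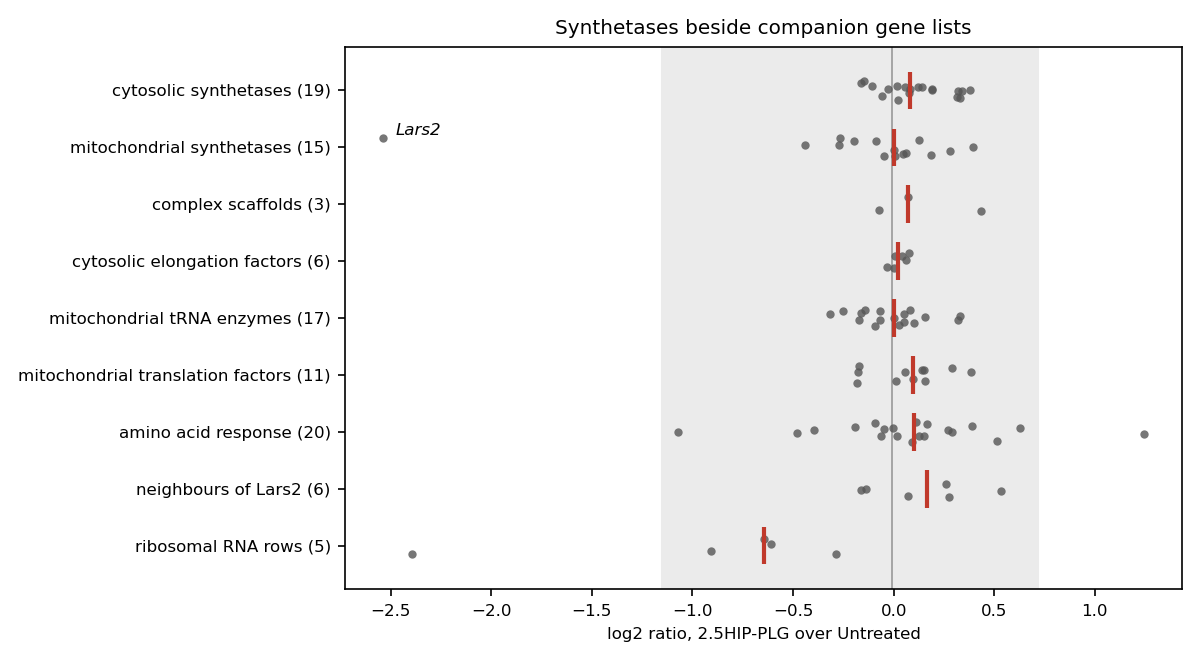
Log2 ratio (2.5HIP-PLG over Untreated) of each measured gene in 9 groups, with the number of genes in brackets, a vertical bar at the group median and a grey band from the 5th to the 95th percentile of all measured genes (-1.15 to 0.72). Lars2 and a ribosomal RNA row are the genes left of -2.

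For 6 members the expected counts were not whole, as happens when RSEM divides a read between genes. They were Aars, Farsb and Hars in the cytosol and Cars2, Hars2 and Iars2 in mitochondria, and each overlaps another gene. Iars2 shares 36.8% of its stretches of 31 bases with Rab3gap2 (1286 counts in 2.5HIP-PLG cells, against 1451 in Untreated cells), Aars 22.7% with Exosc6 (111 in 2.5HIP-PLG cells and 131 in Untreated cells) and Cars2 19.7% with Naxd (428 in 2.5HIP-PLG cells and 496 in Untreated cells). None of these 3 partners was called. Iars shares 17.7%, nearly all with the processed pseudogene Gm4849, and its own counts were whole. The Lars2 counts were whole in both libraries.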

How the data were processed

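Per the labels' protocols, a Qiagen RNeasy column kit gave the RNA and a NuGen mRNA kit the libraries. The submitters' processing notes name STAR, RSEM 1.3.1 and GRCm38; for the version of STAR, the annotation and strandedness, nothing is given in the sources used here. What the authors deposited is a table of RSEM-type expected counts, unscaled, with a column for each library. Groups follow the treatment label. Of the rows, 11.1% were not whole for 2.5HIP-PLG and 11.8% for Untreated.

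Counts were rounded and scaled by column total. Genes with a count sum of at least 20 were measured. Log2 ratios used 0.5 added counts. Intervals cover counting error only, as each group is 1 library, and the rule needed a ratio of 1.5. No molecular identifiers are described, so duplicate reads of a molecule may be counted and the intervals may be too narrow. A count of 0 allows up to 3 counts, which is 0.133 CPM for 2.5HIP-PLG and 0.115 CPM for Untreated. The calculation was tested on simulated counts drawn with counting error only, which leaves out any spread between samples. Every member was named, with up to 4 genes of each companion list by absolute log2 ratio and the neighbours of Lars2; other genes were chosen after their values were seen. Members and lists were chosen with earlier results of these data known. GENCODE M21 holds 54495 of the row IDs.

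Alternatives were trimmed mean of M-values (TMM) and upper quartile scaling in edgeR 4.0.16, DESeq2 1.42.0 size factors, totals without the 20 most abundant genes or without ribosomal RNA rows, other count minimums, ratios and added counts, a 99% interval and unrounded counts. Python 3.11.15, numpy 2.4.6, pandas 2.3.3, scipy 1.17.1, matplotlib 3.10.9 and R 4.3.3 were used.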

Additional observations from a re-analysis of the deposited data

How the results depend on the processing

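Each group is 1 library, so no result could be checked against the spread between samples, and no library could be left out. No paired analysis was possible because each group holds a single library. The ratio of Lars2 stayed between 0.170 and 0.174 over 6 alternatives of scaling and rounding, and the call of Lars2 alone among the members held under every scaling, count minimum and rounding tried, with a ratio of 2 and with a 99% interval. With the lower of the ratio thresholds tried, 6 members were called, 4 higher (Tars, Farsb, Dars and Rars2) and 2 lower (Aars2 and Lars2). At that threshold the higher members numbered 6 with TMM or DESeq2 scaling (adding Rars and Wars), 3 without the ribosomal RNA rows in the totals and 2 with upper quartile scaling, and the lower ones 2 throughout. The summed mitochondrial ratio, 0.458 with all members, was 0.969 without Lars2 and 0.375 over members whose expected counts were whole, a restriction chosen after seeing the data. The cytosolic median log2 ratio lay between 0.06 and 0.09 and the mitochondrial one between -0.02 and 0.02 in all alternatives run. The cytosolic minus mitochondrial difference, 0.08, was 0.045 over members with whole counts. Another scaling multiplies all ratios by the same factor. The Untreated over 2.5HIP-PLG scale ran from 1.1382 to 1.1634, beside 1.1531 in the main setting. The 198 values of single members other than Lars2, under other scalings or without rounding, stayed inside the counting interval of the reported ratio. With changes this small that had to be so, and it is no separate check of any member.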
